A study of Mus musculus with 26 samples.

Results

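The comparison concerns whether neural stem and progenitor cells without SOX2 answer a glucocorticoid differently from wild-type (WT) cells. It used all 26 arrays of the series. For each of 13 cultures and each gene, the value of the array treated with dexamethasone (Dex) minus that of the vehicle array was taken as the response, and the responses of the 7 SOX2 knockout (KO) cultures were set against those of the 6 WT cultures over 19505 genes with a symbol. The cells were grown from the telencephalon of C57BL/6 mice labelled as postnatal day 0, although the labels also call the tissue fetal. They were kept in medium with EGF and FGF-1 and treated after passage 3 for 4 h with 100 nM Dex or with ethanol vehicle. The 4 groups were WT with vehicle, WT with Dex, SOX2 KO with vehicle and SOX2 KO with Dex, with cultures numbered 1 to 6 in WT and 7 to 13 in SOX2 KO. Each culture came from a separate animal. Both sexes were used, the sex of single cultures is not given, and how the knockout was made is not given in the sources used here.

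Dex is a synthetic agonist of the glucocorticoid receptor, the product of Nr3c1. Without hormone the receptor is held in the cytoplasm by chaperones and by the co-chaperone Fkbp5. With hormone it enters the nucleus, binds response elements built of inverted AGAACA arms, and raises or lowers transcription, including that of Fkbp5, which closes a negative feedback loop. SOX2 is a transcription factor of the high mobility group class that maintains neural stem cells. Glucocorticoids are known to slow the proliferation of such cells in the developing brain.

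Expression was read as log2 units, between 2.22 and 19.81, and differences are in the same units. Sox2 itself, the gene removed in the knockout, had vehicle levels of 12.67 to 14.39 in WT and 3.95 to 5.48 in SOX2 KO, so all 13 cultures matched their genotype label. Of the progenitor markers, Vim (17.41 to 19.00) and Fabp7 (18.58 to 19.42) were among the brightest genes on every array. Sox1 (9.27 to 10.7) and Pax6 (8.81 to 10.29) were lower. The microglial gene Cx3cr1 (3.81 to 5.45) and the myelin gene Mog (3.30 to 5.10) were low. The astrocyte gene Gfap varied from 5.13 to 11.36. With vehicle, the oligodendrocyte lineage gene Sox10 varied from 7.12 to 11.34 in WT and from 6.91 to 11.4 in SOX2 KO. One culture went against its treatment labels. In WT culture 4 the mean response of 47 genes of a list of known glucocorticoid-induced genes was -0.84, against 0.66 to 0.83 in the other 5 WT cultures and 0.67 to 0.94 in SOX2 KO. Its array labelled vehicle had a mean level of 8.33 for that list and its array labelled Dex 7.49, while the other WT vehicle arrays lay between 7.25 and 7.95. Its responses over the genes that changed with Dex correlated at -0.91 with the mean of the other WT cultures. Results are therefore given without culture 4, with the value including it where that is stated. SOX2 KO culture 12 also stood apart: the SD of its response over all genes was 1.06, against 0.37 to 0.48 in the other 6 SOX2 KO cultures and 0.35 to 0.52 in the other 5 WT cultures. By overall profile the cultures fell into 3 sets of arrays, unexplained by the labels and called array clusters here, with cultures 1, 2, 3, 7 and 8 in array cluster 1, 4, 10 and 12 in array cluster 2, and 5, 6, 9, 11 and 13 in array cluster 3. Eif2s3y, a gene of the Y chromosome, averaged 12.15 or more in cultures 1, 2 and 3 and 3.25 or less in cultures 4, 5 and 6, and it was high in SOX2 KO cultures 8 and 10, so among WT cultures it split as array cluster 1 did.

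No gene passed the test for a difference in response between the genotypes. With all 13 cultures limma called 0 of 19505 genes (0%) at an adjusted p threshold of 0.05, and the smallest adjusted p was 0.999. Without WT culture 4 it again called 0 genes (0%), with a smallest adjusted p of 1. At an unadjusted limma p under 0.05 there were 644 genes (3.30%) without culture 4, of which 225 (1.15%) had a higher Dex minus vehicle value in SOX2 KO and 419 (2.15%) a lower one. With all cultures there were 688 (3.53%), 255 (1.31%) higher and 433 (2.22%) lower. An analysis that ignored the pairing of arrays within cultures called 0 genes in both sets as well, with 155 and 140 genes at an unadjusted p under 0.05. The median gene's 95% confidence interval extended 0.546 to either side of its difference without culture 4. For a typical gene a difference smaller than that could not be resolved by these cultures. That interval is unadjusted, and passing the adjusted test takes more: the difference of 1.37 for Hif3a did not pass it. The responses of the genotypes did not overlap at all for 46 genes (0.236%) without culture 4, 11 (0.0564%) above and 35 (0.179%) below WT, and for 21 genes (0.108%) with it, 6 (0.0308%) above and 15 (0.0769%) below. Under shuffled genotype labels, full separation in 1 given direction has a probability of 0.00126 without culture 4 and 0.000583 with it. Over both directions together, the shares of 0.236% and 0.108% are close to what shuffled labels would give. The analysis without the pairing treats the 2 arrays of a culture as independent. All other p-values measure the spread between cultures, and the number of cultures limits their precision.

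The response to Dex itself was next counted over both genotypes. Averaged over both genotypes without culture 4, limma called 105 genes (0.538%), of which 80 (0.410%) rose and 25 (0.128%) fell with Dex. With culture 4 included the same contrast called 33 genes (0.169%), of which 30 (0.154%) rose and 3 (0.0154%) fell. The mean response had the same sign in WT and in SOX2 KO for all 105, which the selection on a mean over both genotypes itself favours. For the SOX2 KO mean 49 genes passed (0.251%; 46 rose and 3 fell), and for the mean of the 5 WT cultures 33 passed (0.169%; 31 or 0.159% rose and 2 or 0.0103% fell). Both counts come from the same fit, with a residual variance shared by the genotypes. A culture of one genotype can therefore move the count of the other. With culture 4 included, 14 genes (0.0718%) passed in SOX2 KO, all of which rose, and 0 passed in WT (0%), with 755 at an unadjusted limma p under 0.05. Leaving out SOX2 KO culture 12 raised the 105 to 186 and the 33 to 58. Without the pairing of arrays the counts were 32, 16 and 7. Across the 105 genes the mean response in SOX2 KO correlated with that in WT at a Pearson r of 0.925 and a Spearman rho of 0.841, against 0.328 and 0.236 across all genes. Within the 80 that rose the values were 0.828 and 0.666, and within the 25 that fell 0.239 and 0.200, so the value over the 105 also holds the gap between genes that rose and genes that fell. These values run across genes, which are not independent replicates, and the selection raises them. The median ratio of the response in SOX2 KO to that in WT was 1.07, with single genes between 0.302 and 2.32.

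**Figure D1:**
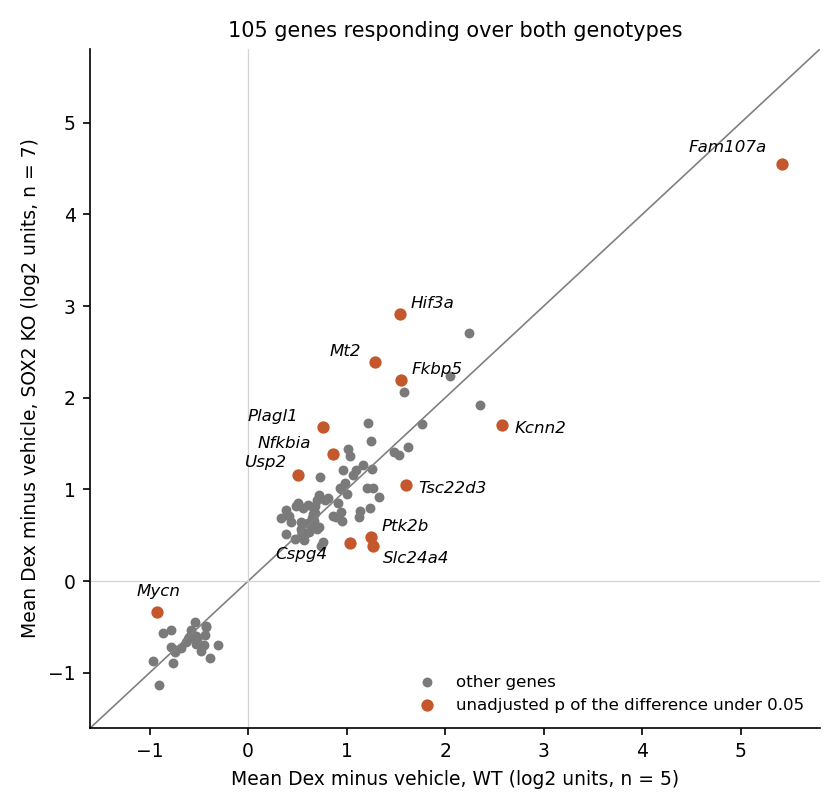
Mean Dex minus vehicle difference in the 5 WT cultures without culture 4 (x axis) and in the 7 SOX2 KO cultures (y axis), both in log2 units, for the 105 genes that changed with Dex over both genotypes. The diagonal marks equal responses. Most genes lie near it, and the 13 genes in orange have an unadjusted p under 0.05 for the difference, with Hif3a, Mt2, Fkbp5 and Plagl1 above it and Fam107a, Kcnn2 and Tsc22d3 below it.

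The 105 genes had been selected on their mean over both genotypes, a contrast that does not use the difference between them. In 62 of them the response was larger in size in SOX2 KO, and in 43 it was smaller. At an unadjusted p under 0.05 there were 13 (12.4%, against 3.30% of all genes), 6 with the larger and 7 with the smaller response in SOX2 KO, and 0 passed the adjusted test. The same residual variance enters both tests, so these shares are not independent of the selection. The 6 with the larger response were Hif3a, Mt2, Plagl1, Fkbp5, Nfkbia and Usp2. The 7 with the smaller response were Fam107a, Kcnn2, Tsc22d3, Ptk2b, Slc24a4 and Cspg4, which rose, and Mycn, which fell. Nfkbia, Usp2, Ptk2b, Slc24a4 and Cspg4 fall outside the rule for named genes and were named after their values were seen. For 82 of the 105 genes the 95% confidence interval of the difference lay within 1 log2 unit of 0.

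Promoter sequences of 3 of the genes described next are shown as RefSeq gives them for build GRCm38.p6. Each is the 250 bases before an annotated start site, 5′ to 3′ along the gene's strand, with capitals marking a single arm AGAACA on either strand, or the full element of 2 inverted arms with 3 bases between them. Hif3a, with the larger response in SOX2 KO, had neither in its window at chr7:17062428-17062677 on the minus strand. Fam107a, with the largest rise of all, had 2 single arms, starting 158 and 110 bases before the start site, in a window at chr14:8309780-8310029 on the minus strand. Sgk1, a textbook receptor target that did not pass the test here, had the full element, starting 189 bases before a start site, and a further arm 242 bases before it, in a window at chr10:21993640-21993889 on the plus strand. RefSeq gave 1 window for Hif3a, 3 for Fam107a and 6 for Sgk1, and the ones shown for the latter genes were picked for their matches: 1 of the 3 and 3 of the 6 held no arm.
Hif3a: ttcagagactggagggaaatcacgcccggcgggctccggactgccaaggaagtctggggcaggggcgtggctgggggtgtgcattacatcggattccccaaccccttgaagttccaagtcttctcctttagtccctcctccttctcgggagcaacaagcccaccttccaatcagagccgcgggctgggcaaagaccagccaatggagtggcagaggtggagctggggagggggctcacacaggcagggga
Fam107a: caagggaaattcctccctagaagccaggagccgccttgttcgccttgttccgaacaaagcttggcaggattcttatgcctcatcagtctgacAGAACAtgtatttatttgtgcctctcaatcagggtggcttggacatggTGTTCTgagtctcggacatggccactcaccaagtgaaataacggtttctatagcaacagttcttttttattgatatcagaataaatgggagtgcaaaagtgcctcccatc
Sgk1: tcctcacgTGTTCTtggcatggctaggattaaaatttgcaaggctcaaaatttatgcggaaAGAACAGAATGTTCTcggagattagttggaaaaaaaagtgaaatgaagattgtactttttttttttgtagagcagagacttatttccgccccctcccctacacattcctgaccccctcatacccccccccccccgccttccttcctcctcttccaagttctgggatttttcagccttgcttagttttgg
The full element occurred in 3 of 32841 mouse promoter windows of this length (0.00913%) and in 0 of the 99 windows found for 69 of the genes that rose with Dex. The single arm, which the full element contains on both strands, occurred in 16.1% of all windows, in 12.1% of the windows of the genes that rose and in 0 of the 22 windows of 17 genes that fell. AACAAT, a core bound by Sox proteins, occurred in 9.43% of all windows, in 5.05% of those of the genes that rose and in 9.09% of those of the genes that fell. Of the 43 named genes with a promoter, 5 held an arm. They were Fam107a, Tsc22d3 and Slc1a3, with a lower mean response in SOX2 KO, and Mgll and Sgk1, with a higher one. The 3 sequences shown therefore do not stand for genes with a larger or smaller response. A match describes letters only, and elements farther from the start site were not searched.

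Hif3a had the smallest p in the fit without culture 4. It encodes a member of the hypoxia-inducible factor family whose short forms restrain the other members, and it is a known glucocorticoid target. The response was 1.41, 1.97, 1.71, 1.60 and 1.02 in WT cultures 1, 2, 3, 5 and 6 and -1.58 in culture 4. In SOX2 KO cultures 7 to 13 it was 2.51, 2.67, 3.26, 3.60, 3.31, 3.12 and 1.90. All 12 cultures other than culture 4 rose, and 6 of the 7 SOX2 KO cultures rose by more than any WT culture, with culture 13 just below WT culture 2. The WT mean was 1.54 ± 0.36 (SD, n = 5), or 2.91-fold if the units are log2. The SOX2 KO mean was 2.91 ± 0.58 (SD, n = 7), or 7.52-fold. The difference was 1.37 ± 0.28 (SE; 95% interval 0.78 to 1.96) with a limma adjusted p of 1. It was 1.89 ± 0.46 with culture 4, 0.89 within array cluster 1 and 1.51 within array cluster 3. Vehicle levels were 5.17 in WT and 5.24 in SOX2 KO, so the genotypes parted on the Dex arrays, at 6.72 and 8.15. That difference on the Dex arrays, 1.43 ± 0.26 (SE), passed the limma test across all genes with an adjusted p of 0.0241, and with culture 4 it was 1.60 with an adjusted p of 0.0114.

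Plagl1, an imprinted zinc finger gene that restrains proliferation, was the only one of the 105 whose cultures did not overlap between genotypes, against 0.236% of all genes. Its response was 0.37, 0.73, 0.57, 1.06 and 1.05 in the 5 WT cultures and -0.56 in culture 4. In SOX2 KO it was 1.54, 1.63, 1.62, 1.43, 1.76, 2.54 and 1.26, so that the lowest SOX2 KO culture lay above the highest WT culture, also with culture 4 included. The means were 0.76 ± 0.30 (SD, n = 5) and 1.68 ± 0.41 (SD, n = 7). Their difference of 0.93 ± 0.23 (SE) had a limma adjusted p of 1 and was 1.03 in array cluster 1 and 0.49 in array cluster 3. With vehicle Plagl1 averaged 8.79 in WT and 9.87 in SOX2 KO, a difference that did not pass (limma adjusted p = 0.445). With Dex it reached 9.55 and 11.56, a difference of 2.01 ± 0.41 (SE) that passed with an adjusted p of 0.0493. With vehicle, WT cultures 3 and 6 lay within the SOX2 KO range of 8.73 to 10.76. With Dex, only culture 3 lay within the range of 10.49 to 12.30, and the other WT cultures lay below it.

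Mt2 and Fkbp5 had a higher mean response in SOX2 KO, and neither difference passed the adjusted test. Mt2 encodes a metallothionein that binds zinc and copper. Its response was 1.18, 1.14, 0.91, 1.03 and 2.19 in the 5 WT cultures and 2.76, 2.06, 1.86, 2.66, 1.74, 3.37 and 2.29 in SOX2 KO. Only WT culture 6 reached into the SOX2 KO range. The difference was 1.10 ± 0.30 (SE). An exact two-sided permutation test of this 1 gene over the 792 splits of the 12 cultures gave a p of 0.0101. The 57 named genes were tested in this way, and these p-values are unadjusted. They are given only for genes on the fixed list or among the largest rises with Dex. Of these, Mt2, Fkbp5, Fam107a, Per1 and Nr3c1 were also among the up to 4 members of smallest p in a gene list for this contrast. Their permutation p-values are therefore not independent of that choice. The difference of Mt2 was 1.33 in array cluster 1 and 0.35 in array cluster 3. Mt2 averaged 16.77 in WT and 15.72 in SOX2 KO with vehicle (limma adjusted p = 0.291) and 18.06 and 18.11 with Dex, so the Dex levels differed by 0.05 only. Fkbp5 followed the same order. Its response was 1.38, 1.27, 1.50, 1.87 and 1.74 in WT and 2.08, 1.79, 2.42, 2.03, 2.16, 2.06 and 2.83 in SOX2 KO, where culture 8 alone fell below the highest WT culture. The difference was 0.64 ± 0.21 (SE; exact permutation p = 0.00505), with 0.55 and 0.66 in array clusters 1 and 3. Vehicle levels of Fkbp5 were 13.53 and 13.04 (limma adjusted p = 0.597) and Dex levels 15.08 and 15.23 in WT and SOX2 KO. In culture 4 the values were -2.06 for Mt2 and -2.03 for Fkbp5, and including it moved the differences to 1.66 ± 0.49 and 1.24 ± 0.48.

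**Figure D2:**
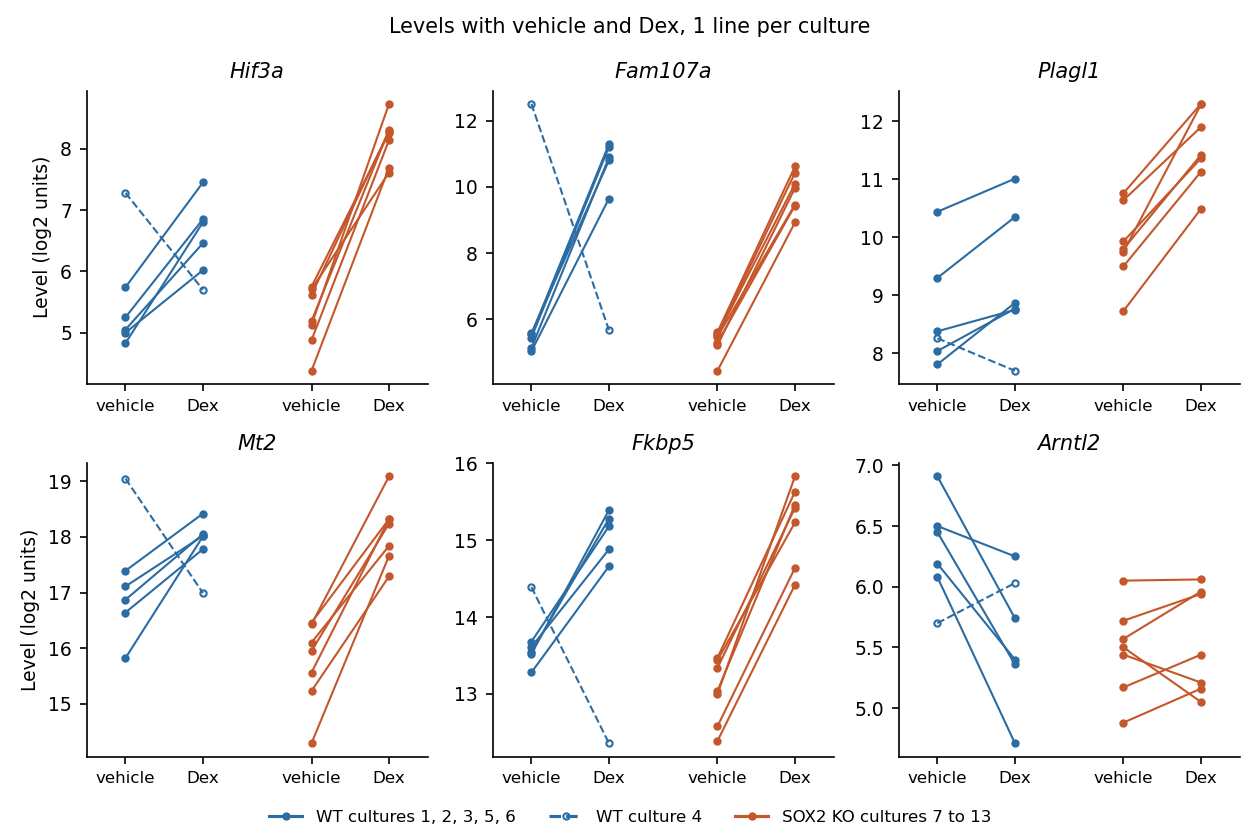
Level in log2 units on the vehicle and Dex arrays of each culture, with 1 line per culture, for 6 genes; the dashed line with open circles is WT culture 4. Mean Hif3a is 5.17 in WT and 5.24 in SOX2 KO with vehicle and 6.72 and 8.15 with Dex, whereas the vehicle levels of Plagl1 overlap between genotypes and culture 4 falls for Hif3a, Plagl1, Mt2, Fkbp5 and Fam107a, where the other cultures rise.

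Among the genes with a smaller mean rise in SOX2 KO was Fam107a, an actin-associated, stress-responsive gene with the largest response of all. It rose by 5.76, 5.22, 5.74, 5.75 and 4.61 in the 5 WT cultures and by 5.00, 4.57, 4.75, 4.88, 4.48, 4.14 and 3.99 in SOX2 KO. Of the 5 WT cultures, 4 lay above every SOX2 KO culture, and culture 6 lay among them. The WT mean of 5.42 ± 0.51 (SD, n = 5) stood against a SOX2 KO mean of 4.54 ± 0.37 (SD, n = 7). The difference was -0.87 ± 0.25 (SE; limma adjusted p = 1), with an exact two-sided permutation p of 0.0101. It was -0.79 and -0.77 within array clusters 1 and 3. Vehicle levels were 5.35 and 5.31, and Dex levels 10.77 and 9.85. The value of -6.83 in culture 4 turned the sign of the difference, to 1.17 ± 1.51 with all cultures.

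Kcnn2, a small-conductance calcium-activated potassium channel, showed the same direction. It rose by 2.10, 2.11, 2.84, 3.00 and 2.84 in WT and by 1.96, 1.91, 2.30, 1.52, 1.39, 0.39 and 2.45 in SOX2 KO, with overlap between 2.10 and 2.45. The difference was -0.88 ± 0.32 (SE; exact permutation p = 0.0303), and -0.66 without SOX2 KO culture 12, the lowest value. Tsc22d3, which encodes the glucocorticoid-induced leucine zipper protein, rose by 1.44, 1.17, 2.07, 2.23 and 1.09 in WT and by 0.74, 0.91, 0.75, 1.52, 1.59, 0.75 and 1.07 in SOX2 KO. These ranges overlapped, and the difference of -0.55 ± 0.25 (SE) had an exact permutation p of 0.0606. Per1, a period gene of the circadian clock, rose by 2.33, 2.36, 1.91, 3.04 and 2.12 in WT and by 1.28 to 2.33 in SOX2 KO, with a difference of -0.44 ± 0.23 (SE; exact permutation p = 0.0669). With culture 4 the differences of Kcnn2, Tsc22d3 and Per1 were -0.09, -0.01 and 0.41, so none of these 3 kept its size. Ptk2b, a tyrosine kinase activated by calcium, differed by -0.77 ± 0.22 (SE), from a rise of 1.25 in WT to 0.48 in SOX2 KO. Slc24a4, a sodium, calcium and potassium exchanger, rose by 1.26 in WT and 0.38 in SOX2 KO.

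For other strong targets the interval of the difference without culture 4 included 0. Klf9, a transcription factor gene and one of the best known receptor targets, rose by 1.73 to 2.45 in WT and by 1.69 to 3.10 in SOX2 KO, with a difference of 0.18 (95% interval -0.38 to 0.75). Zbtb16, a zinc finger gene, rose by 1.07 to 2.03 and by 0.60 to 2.79, with a difference of 0.49 (interval -0.20 to 1.17). Cftr, the chloride channel mutated in cystic fibrosis, rose by 2.25 on average in WT and 2.71 in SOX2 KO (difference 0.46, interval -0.30 to 1.22). Mgll, an enzyme of endocannabinoid breakdown, had mean rises of 1.22 and 1.73 (difference 0.51, interval -0.03 to 1.04). Map7d2, a microtubule-binding gene, had 1.76 and 1.71, and Mertk, a receptor tyrosine kinase, 1.62 and 1.47, with intervals from -0.62 to 0.51 and from -1.01 to 0.69. With culture 4, which had negative values for all 6 of these genes, the differences were 0.85 for Klf9, 1.14 for Zbtb16, 1.13 for Cftr, 0.93 for Mgll, 0.57 for Map7d2 and 0.45 for Mertk. That of Mgll then had an interval of 0.12 to 1.75 and an exact permutation p of 0.0291, with a limma adjusted p of 0.999. Klf15, a further Krüppel-like factor gene (difference -0.01, interval -0.50 to 0.48), and the spermine oxidase gene Smox (0.06, interval -0.32 to 0.45) were named after their values were seen, and with culture 4 their differences were 0.35 and 0.53. Sgk1, the kinase gene with the full element shown above, ranged from -0.63 to 0.49 in WT and from 0.08 to 1.28 in SOX2 KO, where all 7 cultures were above 0, against 2 of 5 in WT. Its response passed in neither genotype (limma adjusted p = 0.998 and 0.349), and the difference of 0.55 ± 0.25 (SE) had an interval of 0.017 to 1.09 and an exact permutation p of 0.0568.

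**Figure D3:**
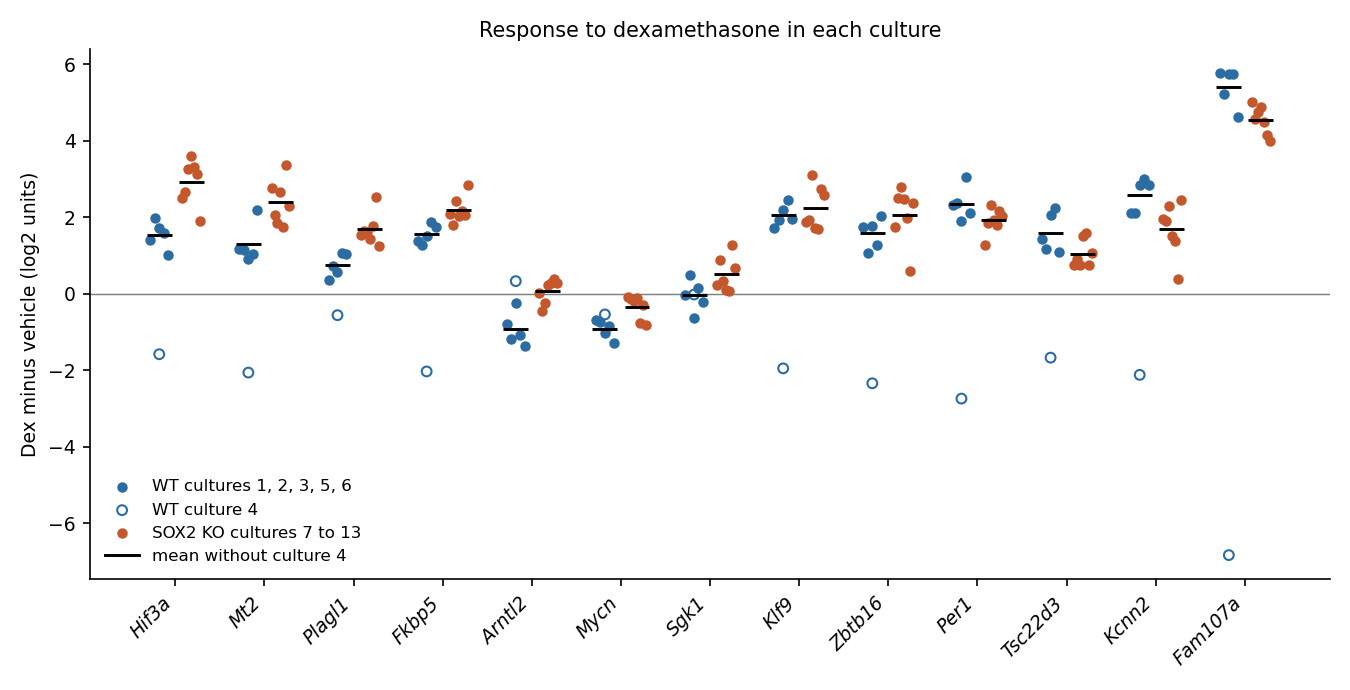
Dex minus vehicle difference in log2 units in each culture for 13 genes; filled points are WT cultures 1, 2, 3, 5 and 6 (blue) and SOX2 KO cultures 7 to 13 (orange), the open circle is WT culture 4 and bars are means without it. Hif3a and Plagl1 lie higher in SOX2 KO, Fam107a lies lower, and culture 4 runs opposite to the other cultures for most of the genes.

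For the largest falls with Dex the interval of the difference also included 0, with and without culture 4. The 6 largest falls were Pde1b, a calmodulin-dependent phosphodiesterase (mean response -0.91 in WT and -1.13 in SOX2 KO), the secretogranin Scg2 (-0.96 and -0.87), the cell adhesion gene Cntnap4 (-0.76 and -0.90), the homeobox gene Prrx1 (-0.74 and -0.77), Phlda1 (-0.78 and -0.72) and Lgi2 (-0.74 and -0.75). Their differences lay between -0.22 for Pde1b and 0.09 for Scg2 without culture 4, and the intervals reached from -0.74 to 0.79. With culture 4 they lay between -0.625 for Pde1b and -0.09 for Lgi2. Without culture 4, mean Scg2 was already 7.84 in WT and 9.77 in SOX2 KO with vehicle, and it was 6.88 and 8.90 with Dex. The level difference with Dex was 2.03 ± 0.37 (SE; limma adjusted p = 0.0241).

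The 2 genes that fell in WT by the test without culture 4, Arntl2 and Mycn, did not pass in SOX2 KO. Likewise, the 3 genes that fell in SOX2 KO by the test were others and did not pass in WT. Choosing genes because they passed in a single genotype itself favours a gap to the other. Arntl2 encodes a partner of Clock in the circadian clock. The response was -0.79, -1.17, -0.25, -1.09 and -1.37 in the 5 WT cultures and 0.33 in culture 4. In SOX2 KO it was 0.01, -0.45, -0.23, 0.22, 0.28, 0.39 and 0.27. WT culture 3 lay within the SOX2 KO range, and the other 4 WT cultures lay below it. The fall in WT, -0.93, passed the limma test with an adjusted p of 0.0381, and the mean of 0.07 in SOX2 KO did not (adjusted p = 0.888). The difference itself was 1.00 ± 0.23 (SE; limma adjusted p = 1), and 0.79 ± 0.26 with culture 4. WT levels went from 6.43 with vehicle to 5.49 with Dex, and SOX2 KO levels were 5.48 and 5.55, so the vehicle arrays of SOX2 KO were already near the WT level after Dex (vehicle difference adjusted p = 0.0571). Mycn, a proliferation factor of neural progenitors and one of the 25 genes that fell over both genotypes, fell by 0.68, 0.75, 1.03, 0.85 and 1.30 in the 5 WT cultures and by 0.09, 0.13, 0.18, 0.12, 0.76, 0.30 and 0.81 in SOX2 KO, where cultures 11 and 13 lay within the WT range. Its mean response was -0.92 in WT (limma adjusted p = 0.015) and -0.34 in SOX2 KO (adjusted p = 0.436). The difference was 0.58 ± 0.20 (SE) and did not pass the adjusted limma test. Mycn was a dim gene, with vehicle means of 4.68 and 3.95 and a mean level at the 5.73 percentile of all genes.

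The remaining genes of smallest p were mostly dim and did not change with Dex over both genotypes. Ceacam11, of a family of adhesion molecules, rose by 0.49 to 1.54 in the 5 WT cultures and ranged from -0.50 to 0.36 in SOX2 KO, with no overlap. Its rise in WT passed the limma test (1.02, adjusted p = 0.0216), and its difference was -1.13 ± 0.23 (SE; limma adjusted p = 1). Bad, which promotes apoptosis, ranged from 0.04 to 0.77 in WT and from -0.70 to 0.05 in SOX2 KO (difference -0.85 ± 0.20). Zscan5b (0.94 ± 0.21), Mindy3 (0.89 ± 0.21) and the kinase gene Hunk (0.88 ± 0.21) lay lower in all 5 WT cultures than in any SOX2 KO culture, as did Spopfm2 (0.79 ± 0.20). Wfdc12 (-0.87 ± 0.22), Cd200r4 (-0.80 ± 0.19), Hcar2 (-0.80 ± 0.21) and Coch (-0.75 ± 0.20) lay higher in all 5 WT cultures, whereas Zfp459 (-0.93 ± 0.24), Ccdc192 (-0.78 ± 0.21) and the olfactory receptor gene Olfr18 (1.13 ± 0.34) overlapped. The mean levels of Cd200r4, Ccdc192, Spopfm2 and Olfr18 lay at the 3.24, 5.33, 14.9 and 18.3 percentile of all genes, and those of Mindy3 and Hunk at 73.3 and 66.8. Whether the dimmest were above background cannot be told from the values used here.

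Gene lists were described by counts, beside those over all genes, where the median difference was -0.03 without culture 4 and 44.9% of the genes had the higher value in SOX2 KO. Of 50 known glucocorticoid-induced genes 47 were measured. In SOX2 KO 17 of them rose (against 0.236% of all genes) and in WT 13 (against 0.159%). The SOX2 KO count rests on 7 cultures and the WT count on 5, and the median response of the list was 0.41 in SOX2 KO and 0.42 in WT. For the difference between genotypes 6 had an unadjusted p under 0.05 with a higher value in SOX2 KO (Hif3a, Mt2, Fkbp5, Nfkbia, Gjb6 and Sgk1) and 2 with a lower one (Fam107a and Tsc22d3). Over all genes 1.15% were higher and 2.15% lower at that threshold, and the list counts that follow are read against the same shares. Gjb6, a connexin gene, was named after its values were seen. The median over the 47 was 0.08, with 26 higher and 21 lower. With culture 4 it was 0.23, with 35 higher and 12 lower, so the split moved with that culture. The mean response of the list overlapped between genotypes, at 0.66 to 0.83 in WT and 0.67 to 0.94 in SOX2 KO. Of 19 glucocorticoid-repressed genes, Mycn and the cytokine gene Tnf (0.77 ± 0.30) had an unadjusted p under 0.05, and the median was -0.01. Tnf was a dim gene, with means of 3.67 and 3.35 in WT with vehicle and Dex and of 3.31 and 3.77 in SOX2 KO. Its difference was 0.06 within array cluster 1 and 0.73 within array cluster 3.

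Among the 18 measured genes for the receptor, its chaperones and steroid handling, 1 had a higher value at that threshold (Fkbp5) and 1 a lower one, Nrip1, a nuclear receptor corepressor (-0.60 ± 0.27). The receptor gene Nr3c1 responded by -1.04 to 0.40 in WT and by -1.12 to 0.15 in SOX2 KO, with a difference of -0.29 ± 0.28 (SE; exact permutation p = 0.346) and vehicle levels of 7.77 and 7.98. Of 20 circadian clock genes Arntl2 alone passed an unadjusted p of 0.05. Of 17 hypoxia-inducible factors and targets it was Hif3a alone, while Epas1 (0.39 ± 0.29), Hif1an (-0.37 ± 0.19) and Ldha (-0.38 ± 0.24) did not. Of 10 metallothionein and zinc transport genes, Mt2 was higher and Mt4 lower (-0.69 ± 0.32), and Mt3 (0.30 ± 0.23) and the zinc importer gene Slc39a14 (0.50 ± 0.24) did not pass. Mt3 differed in level instead, lower in SOX2 KO by 1.72 with vehicle (limma adjusted p = 0.00196).

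Of 19 genes of the Sox family only Sox2 had an unadjusted p under 0.05 (0.65 ± 0.29). Its response was -1.54 to -0.03 in the 5 WT cultures, where it was abundant, and -0.46 to 1.02 in SOX2 KO, where its level was near the bottom of the scale. Sox10, of the oligodendrocyte lineage, had -0.84 ± 0.40 (SE). Of 12 measured oligodendrocyte lineage markers 10 had a lower response in SOX2 KO, 2 of them at an unadjusted p under 0.05, and their median difference was -0.26. The mean response of that list was 0.10 to 0.24 in the 5 WT cultures and, in SOX2 KO, -1.27 in culture 7 and -0.09 to 0.17 in the other 6 cultures, so the low end came from 1 culture. The list mean on the vehicle arrays was 8.18 to 10.25 in WT and 8.31 to 10.30 in SOX2 KO, and the part of these markers in other results was not tested. Of 22 neural stem and progenitor markers only Sox2 had an unadjusted p under 0.05, with a median of 0.04 over the list. DNA replication genes (16 of 21 lower, median -0.09) and mitosis genes (14 of 19 lower, median -0.08) had 0 members at that threshold in either direction.

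**Figure D4:**
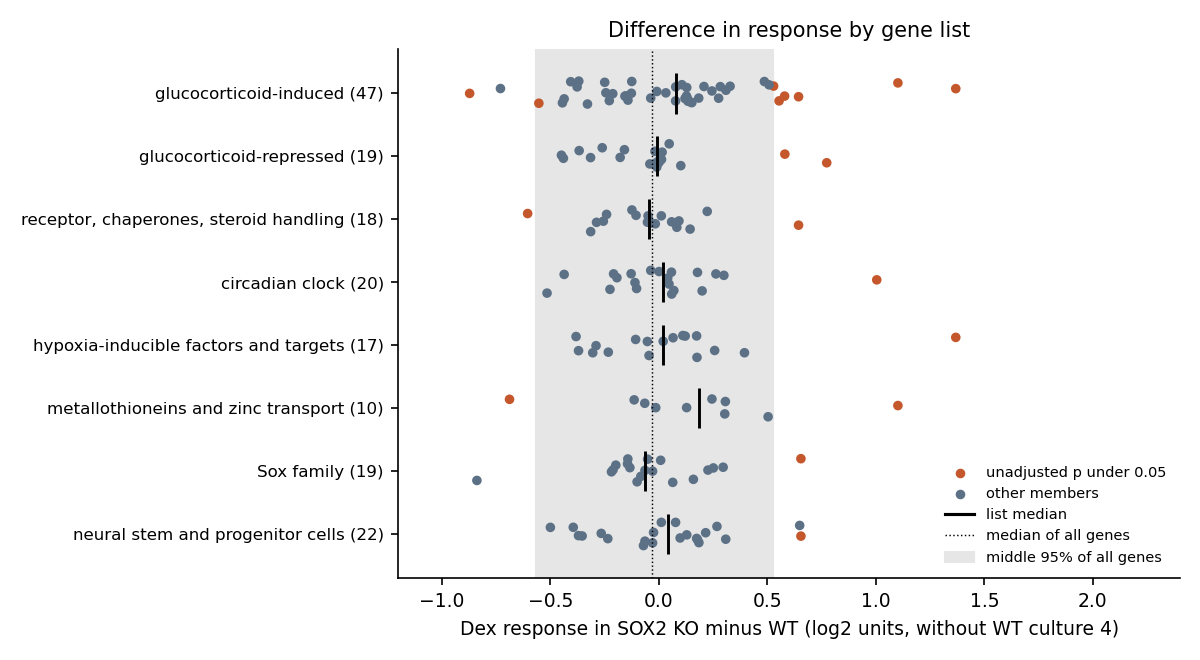
Difference of the Dex response, SOX2 KO minus WT without WT culture 4, in log2 units (x axis) for each measured member of 8 gene lists (rows, with the number of members); orange points have an unadjusted p under 0.05, bars are list medians, the dotted line is the median of all genes and the grey band holds the middle 95% of them. List medians lie between -0.06 and 0.19, and Hif3a at 1.37 is the member farthest to the right.

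The spread of the Dex minus vehicle differences as a whole was compared with 1 value per culture, the SD over all genes. Only 0.538% of the genes passed for Dex over both genotypes, so this SD does not measure the effect of Dex alone. Culture 12, with an SD of 1.06, had a mean response of 0.78 for the glucocorticoid-induced list, within the range of the other SOX2 KO cultures. The 6 WT cultures averaged 0.411 ± 0.068 (SD) and the 7 SOX2 KO cultures 0.527 ± 0.238 (SD). The difference of 0.116 had an exact two-sided permutation p of 0.283 over 1716 splits of the cultures. Without culture 4 the difference was 0.112 (exact permutation p = 0.426), and without cultures 4 and 12 it was 0.023 (exact permutation p = 0.502). In culture 12 there were 3557 genes that rose by 1 log2 unit or more and 2897 that fell by as much, against 140 to 434 and 168 to 520 in the other SOX2 KO cultures. Over the 105 responding genes, each of the 5 WT cultures correlated at 0.88 to 0.94 with the mean of the other WT cultures and at 0.84 to 0.91 with the mean of SOX2 KO. The SOX2 KO cultures correlated at 0.80 to 0.91 with the mean of the other SOX2 KO cultures and at 0.75 to 0.88 with that of WT, and culture 12 gave the lowest value of each range. Between the genotypes at the same treatment, limma called 116 genes (0.595%) with vehicle and 64 (0.328%) with Dex without culture 4, or 112 (0.574%) and 72 (0.369%) with it.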

How the data were processed

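The deposited table held 1 value per transcript cluster and array. The authors' deposited values were taken as log2 expression, from their range. The log base and the normalization are not given in the sources used here. Of 22206 transcript clusters, 19572 carried 1 symbol. For 55 genes with several clusters the one of highest mean was used, which left 19505 genes. Dex minus vehicle was taken within each culture number, since the labels state that cultures from each animal were kept separate. After removal of group means, the pairs of arrays correlated at 0.31 to 0.73. The differences were fitted with lmFit and eBayes of limma 3.58.1 in R 4.3.3, with Benjamini-Hochberg adjustment over all genes and a threshold of 0.05. This equals a fit with the culture as a block. Errors are moderated standard errors (SE) or standard deviations (SD). Genes are named by rule: the 6 of smallest p in each direction of both fits, the 12 largest rises and 6 largest falls with Dex, 11 fixed genes and up to 4 members of each list described, without predicted loci. Members, lists and tests were chosen with earlier results of these data known. Alternatives were no pairing, quantile normalization, median centring, a level filter, array weights, a trended and robust prior, averaging transcript clusters, array cluster or Eif2s3y level as a covariate, and leaving out each culture. For single genes, differences were also tested by exact permutation over cultures. The scripts were tested on simulated data. Of 57 named genes, 43 had a RefSeq promoter.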

Additional observations from a re-analysis of the deposited data

Results flagged for a closer look

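In 118 groups of responses, 28 had a highest or lowest culture whose gap to the nearest other culture exceeded the 95% critical value of Dixon's test. Chance marks about 1 in 20 such groups. Of the 28, 17 were WT culture 4, 6 were SOX2 KO culture 12 and 5 were other cultures. All values are Dex minus vehicle in log2 units.

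WT culture 4 stood below the other WT cultures for Fam107a (-6.83), Per1 (-2.74), Zbtb16 (-2.34), Kcnn2 (-2.12), Mt2 (-2.06), Fkbp5 (-2.03), Map7d2 (-2.0), Mertk (-1.99), Klf9 (-1.95), Cftr (-1.77), Tsc22d3 (-1.67), Hif3a (-1.58), Mgll (-1.33) and Mt3 (-0.83), and in the mean of the glucocorticoid-induced list (-0.84). It stood above them for Pde1b (1.50) and Hunk (0.40). Each of these genes but Mt3 and Hunk passed the test for a Dex response over both genotypes, and culture 4 had the opposite sign there. Its genotype label matched its Sox2 level. The cause was not tested.

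SOX2 KO culture 12 stood apart in the SD of its response over all genes (1.06). It had the highest response in SOX2 KO for Plagl1 (2.54), Hunk (1.11) and Spopfm2 (0.82) and the lowest for Pde1b (-2.0) and Nrip1 (-1.59). Without culture 12 the difference of Plagl1 was 0.78 in the fit without culture 4. The cause was not tested.

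Among other cultures, WT culture 6 was highest for Epas1 (0.60). WT culture 5 was lowest for Hes5 (-0.90). WT culture 1 was lowest for Spopfm2 (-1.04) and Zscan5b (-0.75). SOX2 KO culture 9 was lowest for Wfdc12 (-0.99).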

How the results depend on the processing

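The count of 0 genes for the genotype difference held under every alternative run, including each culture left out (0 to 0). Without the pairing of arrays (no replicate block) the Dex response passed for 32 genes over both genotypes, 16 in SOX2 KO and 7 in WT without culture 4, against 105, 49 and 33. With culture 4 included the 105 became 33 and the 49 became 14. With genes above the median level only it passed for 195 and 81, and with a trended and robust prior for 167 and 80, over both genotypes and in SOX2 KO. With array weights it passed for 205 over both genotypes, 120 in WT without culture 4 and 1 in WT with it. SOX2 KO against WT with vehicle (112) gave 194 after quantile normalization and 418 with array cluster as a covariate, which gave 167 with Dex in place of 72. Leaving out 1 culture at a time gave 81 to 186 genes over both genotypes, 19 to 58 in WT without culture 4, 0 to 33 in WT with it (33 without culture 4) and 39 to 98 for SOX2 KO against WT with Dex, where 39 came without WT culture 1. The causes were not tested. Of the differences of named genes under alternatives, 65 changed sign and 2462 did not. The 2462 include the exact permutation tests, which reuse the main difference and so could not change its sign. With all 13 cultures, Kcnn2 became 0.026 (quantile), 0.013 (weights), 0.16 (array cluster) and 0.020 (Eif2s3y), Tsc22d3 0.11 (quantile), 0.036 (centring), 0.12 (array cluster) and 0.12 (Eif2s3y), Phlda1 0.0078 and Scg2 0.023 (weights). Without culture 4, Lgi2 became 0.011 (quantile), 0.042 (centring) and 0.016 (Eif2s3y), Prrx1 0.0039 (quantile), 0.016 (centring), 0.13 (array cluster) and 0.051 (Eif2s3y), Map7d2 0.018 (quantile), and Mertk 0.062 (weights) and 0.15 (array cluster). Leaving out 1 of the 13 cultures gave -0.87 to 1.65 for Fam107a, -0.88 to 0.15 for Kcnn2, -0.23 to 0.013 for Lgi2, -0.053 to 0.87 for Map7d2, -0.16 to 0.75 for Mertk, -0.44 to 0.72 for Per1, -0.28 to 0.059 for Phlda1, -0.55 to 0.089 for Scg2 and -0.55 to 0.23 for Tsc22d3. Leaving out 1 of the 12 gave -0.14 to 0.099 for Lgi2, -0.17 to 0.16 for Map7d2, -0.32 to 0.15 for Mertk, -0.050 to 0.26 for Phlda1, -0.16 to 0.060 for Prrx1 and -0.089 to 0.32 for Scg2. Hif3a kept its direction in all alternatives, at 1.20 to 1.59 without culture 4. Plagl1 kept its direction, but its unadjusted p in limma came to 0.151 without the pairing. Dim genes have no detection values here, which limits what can be said of them.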
